A study of Mus musculus with 12 samples.

Results

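The 10 alpha defensin genes described here are Defa24, Defa30, Defa39, Defa38, Defa21, Defa22, Defa35, Defa17, Defa5 and Defa26, out of 28 protein-coding alpha defensin (Defa) genes and 55414 genes in the count table. They were chosen by their counts in Paneth cells, as the abundant members of the family, and by results of these data on GR deletion that were already known. Their abundance there is a description and not a result. In each Paneth library they held between 96.3 and 97.3% of all counts of the 28 genes. The lowest of them, Defa35, ranks only 14th by mean Paneth level. Among the 18 genes not chosen, Defa29 (6833 CPM, counts per 1000000 gene counts, over the 6 Paneth libraries), Defa34 (1336 CPM), Defa40 (1252 CPM) and Defa3 (217 CPM) were above Defa35.

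Alpha defensins, called cryptdins in the mouse, are small cationic antimicrobial peptides. Paneth cells, which sit at the base of small-intestinal crypts, store them in secretory granules, and the metalloproteinase Mmp7 cuts the mouse propeptides to their active form. The glucocorticoid receptor (GR, encoded by Nr3c1) is a transcription factor that binds DNA once a glucocorticoid hormone has bound to it.

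RNA-seq was available for 12 libraries, with 3 in each of 4 groups, namely WT Paneth, GRKO Paneth, WT non-Paneth and GRKO non-Paneth cells. All came from small-intestinal crypts of untreated adult C57BL/6J mice, and GRKO mice were GRvillinKO, in which GR is deleted where villin, a gene of the whole intestinal epithelium, is active. The Cre line was thus not restricted to Paneth cells, and the labels name no Cre control for the WT mice. Paneth cells were sorted as CD24+ cKIT+ SSC medium to high cells without CD31, CD45 and TER119, while no source used here states how non-Paneth cells were gated. Genotypes were taken from the sample titles, because the genotype field of the labels follows the cell fraction. The labels name no mouse, region of the intestine or batch, so that p-values measure the spread between these libraries. A genotype effect cannot be told apart from a batch that followed it.

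Library totals lay between 11126297 and 15910292 counts. Nr3c1 read 33.7, 33.0 and 41.1 CPM in the WT Paneth libraries and 5.28, 4.73 and 12.1 CPM in the GRKO Paneth libraries (log2 fold change −2.31, SE 0.319, adjusted p = 0.0331 by edgeR), in the direction the titles give. In non-Paneth cells Nr3c1 fell by 2.67 on the log2 scale (SE 0.298, adjusted p = 6.67e-05 by edgeR). The 5 Paneth markers Lyz1, Mmp7, Ang4, Itln1 and Mptx2 summed to 163780 to 239080 CPM in Paneth and to 241 to 1029 CPM in non-Paneth libraries. WT replicate 2 carried Xist, a transcript of female cells, at 127 CPM in the Paneth and 257 CPM in the non-Paneth library, while the other 10 libraries had at most 0.520 CPM. Hence sex differed within the WT group.

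All 10 genes lie on mouse chromosome 8, in the stretch of 709.93 kb that holds the 28 genes (GRCm39, GENCODE vM39), with 8 on the plus strand and Defa38 and Defa39 on the minus strand. Each canonical transcript has 2 exons. Defa21 (ENSMUSG00000074447, chr8:21515557-21516533) and Defa22 (ENSMUSG00000074443, chr8:21652290-21653265) are nearly the same gene. Their transcripts are 98.6% identical, and 197 bases in a row are shared in the 200 bases upstream of their starts. Defa35 (ENSMUSG00000061845, chr8:21555054-21556012) lies between them, and Defa24 (ENSMUSG00000064213, chr8:22224506-22225490) closes the stretch.

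Defa21, Defa22, Defa35 and Defa5 were lower in every GRKO than in every WT Paneth library, Defa5 only by a narrow gap. The upstream sequences of the first 3 of these, and of Defa24, which was not lower, are shown. They were read from GRCm39 and cover the 200 bases before the canonical start, at chr8:21515358-21515557 for Defa21, chr8:21652093-21652292 for Defa22, chr8:21554854-21555053 for Defa35 and chr8:22224307-22224506 for Defa24, all on the plus strand and written 5′ to 3′. Capitals mark matches to the TATA box TATAAA, to the TCF/LEF core CTTTGA (here as TCAAAG, its other strand), which binds the factors of Wnt signalling, and to the core AGAACA of GR sites.
Defa21: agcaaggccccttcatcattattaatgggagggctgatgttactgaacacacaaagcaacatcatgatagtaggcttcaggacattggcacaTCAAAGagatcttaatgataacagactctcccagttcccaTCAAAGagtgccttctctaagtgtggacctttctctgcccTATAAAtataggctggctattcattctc
Defa22: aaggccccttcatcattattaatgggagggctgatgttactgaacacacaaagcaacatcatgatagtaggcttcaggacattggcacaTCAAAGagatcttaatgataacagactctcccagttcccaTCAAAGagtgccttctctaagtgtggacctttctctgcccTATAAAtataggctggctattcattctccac
Defa35: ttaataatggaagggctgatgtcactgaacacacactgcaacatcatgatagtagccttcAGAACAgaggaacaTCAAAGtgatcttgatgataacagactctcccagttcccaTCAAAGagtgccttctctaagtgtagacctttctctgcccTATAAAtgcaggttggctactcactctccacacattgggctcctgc
Defa24: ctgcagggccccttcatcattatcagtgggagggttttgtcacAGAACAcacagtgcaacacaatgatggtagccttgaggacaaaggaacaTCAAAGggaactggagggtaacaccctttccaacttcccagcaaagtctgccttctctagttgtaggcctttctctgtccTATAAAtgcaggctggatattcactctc

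The GR core AGAACA, searched on both strands as AGAACA and TGTTCT, was found upstream of 5 of the 10 genes (Defa24, Defa30, Defa35, Defa17 and Defa5), of 13 of the 28 genes, and in 11.35% of 21770 windows of the same length upstream of protein-coding genes. It was found neither upstream of Defa21 nor of Defa22. The TCF/LEF core (CTTTGA or TCAAAG) was in 8 of 10, in all except Defa38 and Defa39, against 11.3% of all windows. Defa21, Defa22, Defa35, Defa17 and Defa5 each hold 2 copies, and Defa24, Defa30 and Defa26 hold 1. TATAAA or TTTATA was in 9 of 10, with Defa26 as the exception, against 9.57% of all windows, and the CDX core (TTTATG or CATAAA), bound by intestinal homeobox factors, was in 0 of 10 against 7.81%. No 2 matches overlap. A match describes letters in this window, not a bound site. The windows are also not independent of each other. Their identity ran from 45.0% for Defa30 and Defa26 to 96.5% for Defa24 and Defa30 and 97.0% for Defa21 and Defa22. The counts out of 10 and the shares of all windows are therefore not like for like. The promoter table of RefSeq lists 5 of the 10 genes (Defa30, Defa38, Defa21, Defa22 and Defa35), and its window holds the last 100 bases shown here for each of those.

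Because of this likeness, part of the reads of some genes cannot be placed. Reads that map to several places are not in the counts of the aligner used, and the share of exonic windows of 100 bases that occur once in the genome was 100% for Defa24, 99.6% for Defa30, 98.3% for Defa26, 92.3% for Defa39, 77.3% for Defa38 and 67.0% for Defa35. It was 41.7% for Defa22 and 41.5% for Defa21, and 58.1% of the Defa21 windows also occur in Defa22. For Defa5 it was 17.98% and for Defa17 13.3%. The level of these last 4 genes is therefore uncertain and counted low against the others, while a comparison of 1 gene between genotypes uses the same windows on both sides.

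In WT Paneth cells the order of the levels, given per kb of exonic length (CPM per kb, mean ± SD, n = 3), was led by Defa24 with 323520 ± 5418. Defa30 followed with 96486 ± 11874. Then came Defa21 with 57402 ± 3648, Defa22 with 54651 ± 3907, Defa39 with 49958 ± 2314 and Defa38 with 46355 ± 2419. Within this middle group each neighbour overlapped the next over the 3 libraries. Well below them came Defa26 (5009 ± 399) and Defa17 (4683 ± 858), which overlapped, then Defa5 (2832 ± 204), and last Defa35 (471 ± 23.7). In GRKO Paneth cells Defa24 (324350 ± 44344) and Defa30 (103000 ± 21821) again led. Defa38 (47489 ± 4406) and Defa39 (47019 ± 5273) were next by mean, above Defa22 (38098 ± 6439) and Defa21 (32309 ± 5185). Over the GRKO libraries Defa22 (up to 44825) overlapped Defa38 (from 43619) and Defa39 (from 40951), while Defa21 (up to 38061) overlapped neither Defa38 nor Defa39. The place of Defa21 and Defa22 against Defa38 and Defa39 depends on the windows that can be counted. With counts divided by the share of unique windows, Defa21 held 14.9% of the summed 10 genes in WT and 9.39% in GRKO, against 9.01 and 10.4% for Defa38 and 7.96 and 8.48% for Defa39.

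**Figure D1:**
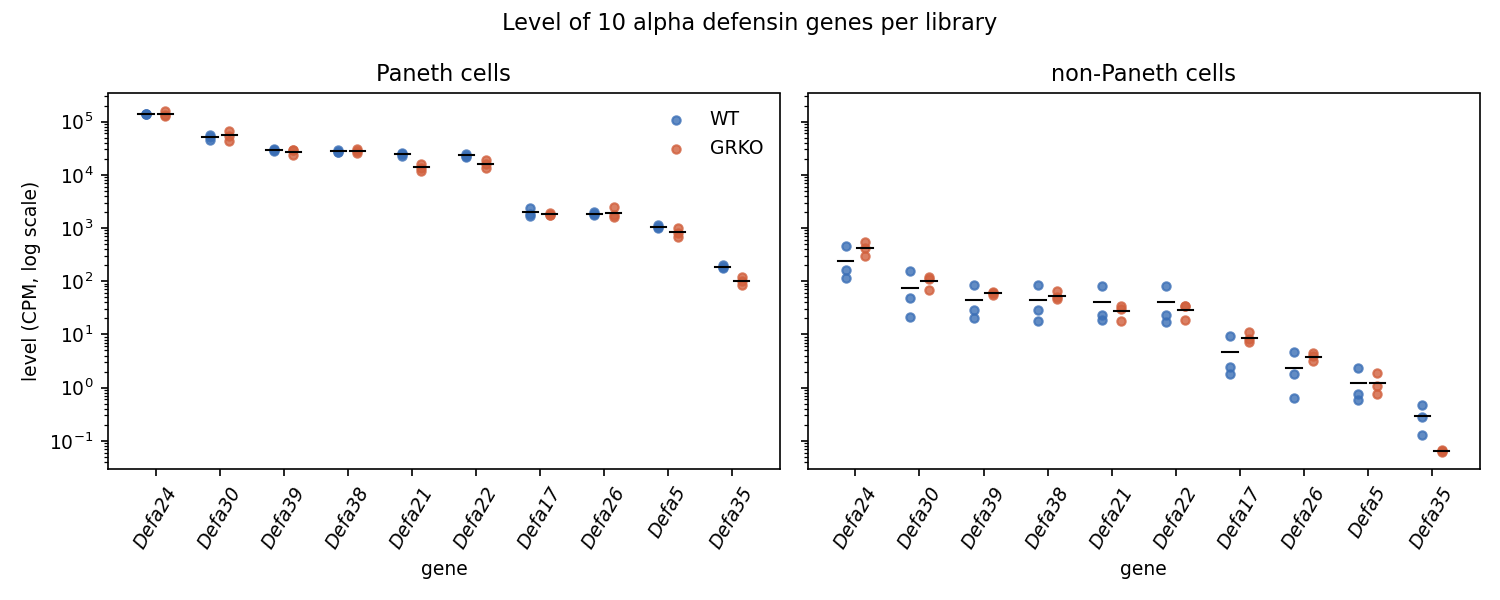
Level of each gene in CPM (vertical axis, logarithmic) in each Paneth (left) and non-Paneth (right) library, WT in blue and GRKO in red, with a black line at the mean of 3 libraries. In Paneth cells the levels run from about 139110 CPM for Defa24 to 188 CPM for Defa35 in WT, and the GRKO points of Defa21, Defa22 and Defa35 lie under the WT points.

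The main comparison asks what loss of GR does to these genes in the cells that make them. Summed, the 10 genes held 30.3, 30.5 and 29.2% of all counts in the WT Paneth libraries and 32.9, 26.9 and 25.6% in the GRKO Paneth libraries. The means, 30.0% ± 0.694 and 28.5% ± 3.93 (SD, n = 3), differed by 1.54 percentage points, less than the spread of the GRKO libraries, which lay on both sides of the WT range. In bulk samples, fewer cells of a type and less RNA per cell cannot be told apart. Of the 10 genes, 1 passed the test at an adjusted p under 0.05, and it was lower. Over all 13057 genes tested, 3.22% were called in either direction and 1.52% as lower in GRKO. In 4 of the 10 genes (Defa21, Defa22, Defa35 and Defa5) all 3 GRKO libraries were below all 3 WT libraries, which held for 9.99% of all genes, and in the other 6 the groups overlapped. The median log2 fold change was −0.11 over the 10 genes and 0.03 over all genes tested. These counts are descriptions, since the genes were listed with results of this contrast known.

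Defa35 read 180, 184 and 198 CPM in WT and 102, 85.8 and 121 CPM in GRKO Paneth libraries. The groups were far apart for this least abundant gene, which rests on 1198 to 2299 counts per library. Its log2 fold change was −0.88 (SE 0.161, adjusted p = 0.0381 by edgeR's quasi-likelihood test with Benjamini-Hochberg adjustment). Defa35 was listed with results of this contrast known, so this p is a description. The call was near the threshold. It held in 14 of 21 settings, over which the adjusted p ran from 2.39e-06 to 0.217 and the log2 fold change from −0.97 to −0.72. It was lost without GRKO Paneth replicate 2 (−0.72, adjusted p = 0.217 by edgeR), without WT Paneth replicate 1 (−0.97, adjusted p = 0.111 by edgeR), without WT Paneth replicate 2 (adjusted p = 0.0529 by edgeR), without GRKO non-Paneth replicate 2 (0.0503), without WT non-Paneth replicate 2 (0.0522), with scaling by library totals only (−0.87, 0.0591), and with only the Paneth groups in the fit (−0.92, adjusted p = 0.0863 by edgeR).

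Defa21 read 23025, 24375 and 26132 CPM in WT and 16252, 13182 and 11953 CPM in GRKO Paneth libraries. Its near copy Defa22 read 21842, 22898 and 25104 CPM in WT and 19095, 15965 and 13629 CPM in GRKO. In both, every GRKO library was below every WT library, with a wider gap in Defa21. The log2 fold change was −0.83 for Defa21 (SE 0.481, adjusted p = 0.289 by edgeR) and −0.52 for Defa22 (SE 0.491, adjusted p = 0.521 by edgeR), and neither passed the test. The fit estimates the spread over all 12 libraries, and the part of the non-Paneth libraries in these p-values was not tested. With only the Paneth groups in the fit, Defa21 had −0.87 (adjusted p = 0.151) and Defa22 −0.56 (adjusted p = 0.284 by edgeR). That fit called 0 of all genes. Without a filter on low counts Defa21 passed (−0.81, adjusted p = 0.0120 by edgeR), in a setting that called 1780 genes against 420 in the reported fit.

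Defa5 read 1002, 1043 and 1150 CPM in WT and 1000, 668 and 807 CPM in GRKO Paneth libraries. Its separation rests on a gap of about 1 CPM, between GRKO replicate 1 and WT replicate 1, and its log2 fold change was −0.36 (SE 0.331, adjusted p = 0.509 by edgeR). The most abundant gene, Defa24, read 140640, 140260 and 136430 CPM in WT and 161380, 130400 and 126640 CPM in GRKO. The GRKO libraries surrounded the WT libraries, and the log2 fold change was 0.00 (SE 0.425).

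Defa30 read 52405, 57210 and 44666 CPM in WT and 67241, 53312 and 44143 CPM in GRKO Paneth libraries. Defa38 read 29129, 27329 and 26284 CPM in WT and 31109, 27705 and 25953 CPM in GRKO. Defa39 read 30580, 27981 and 28666 CPM in WT and 28882, 23833 and 29380 CPM in GRKO. All 3 overlapped between genotypes. For the less abundant Defa17 and Defa26 the mean level was 1981 ± 363 and 1863 ± 148 CPM in WT against 1806 ± 94.8 and 1948 ± 485 CPM in GRKO (SD, n = 3). Among these 5 genes the log2 fold changes lay between −0.13 (Defa17) and 0.09 (Defa30), with standard errors of 0.393 to 0.557, so that a p above the threshold does not show that they were unchanged.

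The share of each gene in the summed counts of the 10 compares the genes with each other inside 1 library, free of the library total. Defa21 took 7.59, 7.99 and 8.95% in WT and 4.93, 4.91 and 4.67% in GRKO Paneth libraries, which is 0.591 of the WT share. Defa22 took 7.20, 7.51 and 8.59% in WT and 5.80, 5.95 and 5.32% in GRKO, or 0.732 of the WT share. For Defa35 the GRKO share was 0.587 of the WT share (0.0626% ± 0.00460 to 0.0367% ± 0.00920) and for Defa5 it was 0.814 (0.355% ± 0.0338 to 0.289% ± 0.0354). Defa24 took 46.4, 46.0 and 46.7% in WT and 49.0, 48.6 and 49.5% in GRKO. These 5 genes did not overlap between genotypes and the other 5 did, while over all genes tested the ratio to the summed 10 genes did not overlap, in either direction, for 10.2%. The shares come from the contrast that was known when the genes were listed, so they carry no test. Shares of 1 sum depend on each other, so that a lower share of some genes raises the rest.

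**Figure D2:**
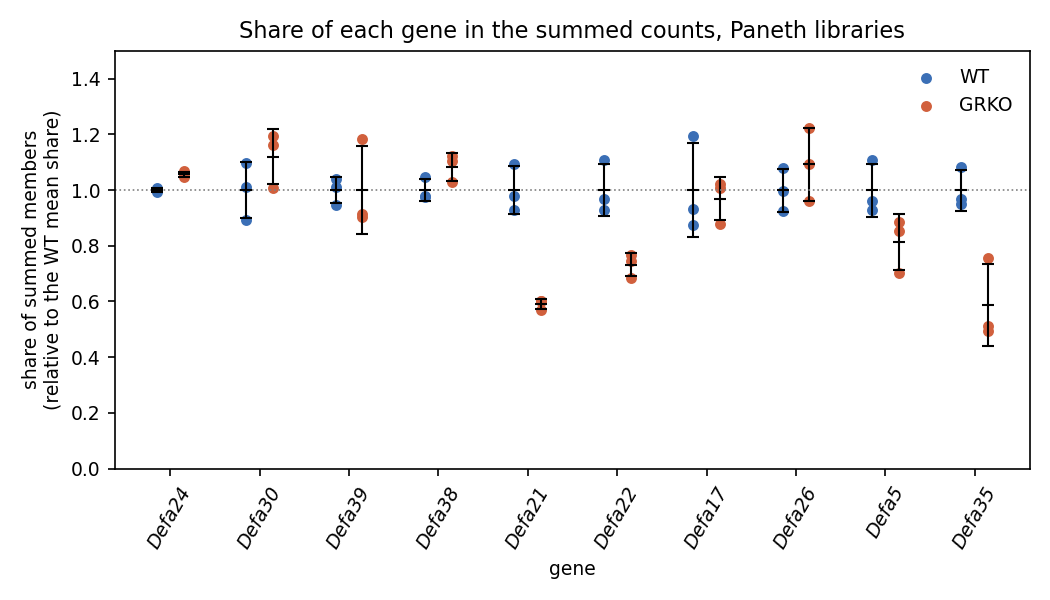
Share of each gene in the summed counts of the 10 genes per Paneth library, divided by the mean WT share (vertical axis), with WT in blue, GRKO in red, and the mean ± SD of 3 libraries in black. The mean GRKO share of Defa21 stands at 0.591, of Defa22 at 0.732 and of Defa35 at 0.587 of the WT share, and that of Defa24 at 1.06.

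Within the near-identical pair, the ratio of Defa21 to Defa22 counts was 1.05, 1.06 and 1.04 in WT and 0.851, 0.826 and 0.877 in GRKO Paneth libraries. This ratio was chosen after its values were seen and is given without a test. The exact 95% counting intervals of the 6 libraries, between 0.821 and 0.883 over GRKO and between 1.04 and 1.07 over WT, rested on at least 160685 counts of either gene per library, and they cover counting error only. In the non-Paneth libraries the ratio was 0.997, 1.001 and 1.06 in WT and 0.851, 1.002 and 0.959 in GRKO, so that the groups overlapped, with 266 to 1172 counts of either gene.

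A second ratio, also chosen after its values were seen, sets Defa21 and Defa22 against Defa38 and Defa39, of like abundance. It was 0.751, 0.855 and 0.932 in WT and 0.589, 0.566 and 0.462 in GRKO Paneth libraries. In non-Paneth libraries it was 0.801, 0.951 and 0.945 in WT and 0.508, 0.642 and 0.343 in GRKO. The genotypes were apart in both cell fractions. The labels do not say whether the fractions came from the same mice. In WT, however, replicate 2 carried Xist in both fractions. Same-numbered WT libraries of the fractions also correlated at 0.39, 0.251 and 0.308 after group means were removed. The second fraction is therefore not taken as an independent reading.

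**Figure D3:**
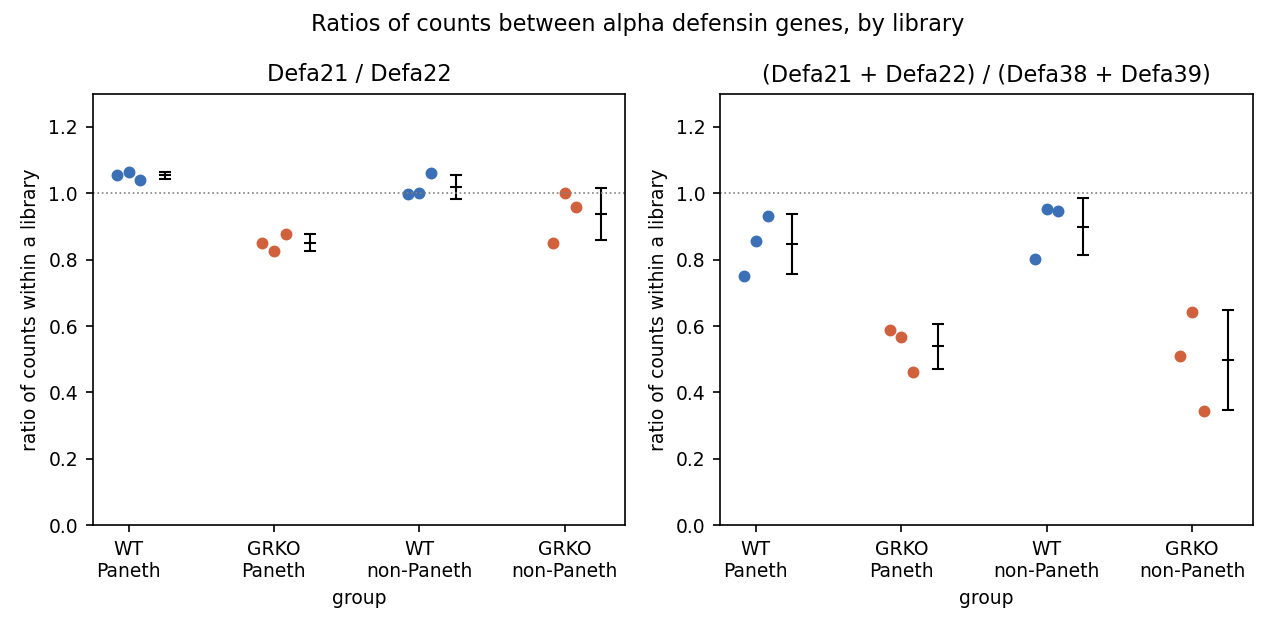
Ratio of counts within each library (vertical axis) for Defa21 to Defa22 (left) and for the sum of Defa21 and Defa22 to the sum of Defa38 and Defa39 (right), by group, with each library as a point and the mean ± SD of 3 libraries in black. The left ratio is 1.05 ± 0.0118 in WT and 0.851 ± 0.0257 in GRKO Paneth cells, and the right ratio is lower in GRKO libraries of both fractions.

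Along the locus the lower genes did not form 1 block. Defa21 (0 kb from the first gene), Defa35 (39.5 kb) and Defa22 (136.7 kb) had log2 fold changes of −0.83, −0.88 and −0.52, while Defa38 (69.4 kb) and Defa30 (93.7 kb), which lie between Defa35 and Defa22, had 0.03 and 0.09. Defa5 lay at 271.9 kb and the other 4 genes from 592.6 kb on. Of the 18 other Defa genes, 10 passed the filter on low counts, 0 were called by edgeR (0 also at an unadjusted p under 0.05 and by DESeq2), and 1 of the 10 had a positive log2 fold change (Defa40, 0.11). Defa29, at 300.3 kb, was the one among them whose GRKO libraries (5435 to 6780 CPM) were all below the WT libraries (7069 to 8358 CPM), with a log2 fold change of −0.40 (SE 0.549, adjusted p = 0.674 by edgeR).

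**Figure D4:**
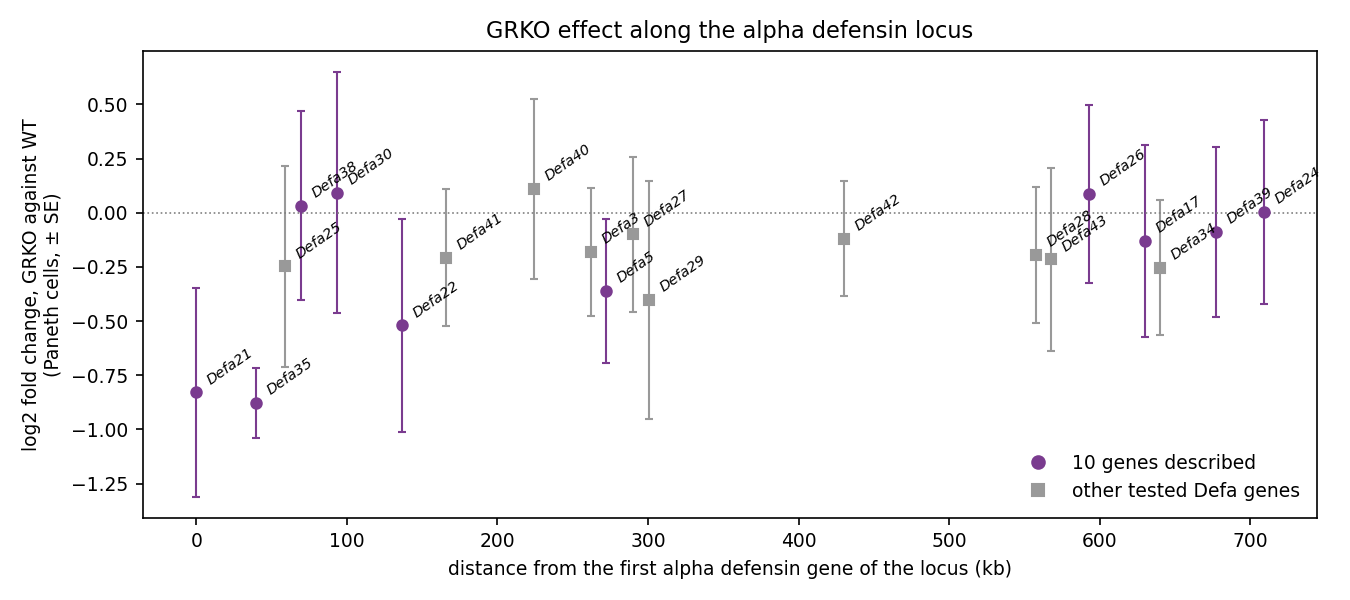
Log2 fold change of GRKO against WT in Paneth cells (vertical axis, ± SE derived from the F value of edgeR) against the distance of each gene from the first alpha defensin gene of the locus in kb, for the 10 genes described (purple circles) and the 10 other Defa genes tested (grey squares). Defa21 and Defa35 stand lowest at −0.83 and −0.88, with Defa38 and Defa30 near 0 beside them.

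Over the 6 Paneth libraries, Defa21 and Defa22 followed each other most closely (Pearson r = 0.979 of log2 CPM), and Defa5 was most like Defa21 (0.854). Defa35 was most like Defa29 (0.932), Defa26 and Defa24 like Defa40 (0.966 and 0.932), Defa30 and Defa38 like each other (0.880), Defa39 like Defa28 (0.927) and Defa17 like Defa3 (0.871). The least alike of the 10 were Defa30 and Defa35 (−0.34). Over all 12 libraries, the genes outside the family with a mean of at least 100 CPM in a group that were most like the summed 10 genes were Mptx2 (r = 0.998 of log2(CPM + 1)), Lyz1 (0.998), Nupr1 (0.997), Itln1 (0.996) and Clps (0.996). These values describe libraries that share depth and group and carry no test.

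The genes that process, store and control alpha defensins were read as a list of 25, which holds granule proteins such as Lyz1, the protease Mmp7, chaperones of the secretory pathway, and factors of Paneth cell identity and Wnt signalling. In Paneth cells 0 of the 25 were called by edgeR, with 7 at an unadjusted p under 0.05 and 2, both higher, called by DESeq2. Among all 13057 genes tested by edgeR, 3491 were under that unadjusted p, and DESeq2 called 1465 genes. In non-Paneth cells 5 were called higher and 2 lower, against 37.3% of all genes called in either direction. Of the 25 genes 18 had a positive log2 fold change in Paneth cells, and the median was 0.28 against 0.03 over all genes. Mmp7, the cutting enzyme, read 3996, 6481 and 5497 CPM in WT and 5531, 4251 and 4218 CPM in GRKO Paneth libraries and overlapped between genotypes (log2 fold change −0.21, SE 0.433). Pdia4, a disulfide isomerase of the endoplasmic reticulum, had a log2 fold change of 0.65 (SE 0.198, adjusted p = 0.0708 by edgeR). Fzd5, a Wnt receptor, had 0.55 (SE 0.161, adjusted p = 0.0607 by edgeR), and Rab3d, a GTPase of secretory granules, had 0.51 (SE 0.173, adjusted p = 0.0896 by edgeR).

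Among GR and its known targets, 9 of 10 listed genes passed the filter on low counts. In Paneth cells 2 of the 9 were called, both lower, namely Nr3c1 and Sgk1, a kinase gene induced by glucocorticoids, which read 8.15, 9.57 and 7.91 CPM in WT and 1.44, 3.37 and 2.83 CPM in GRKO (log2 fold change −1.78, SE 0.400, adjusted p = 0.0448 by edgeR). In non-Paneth cells 6 of the 9 were called lower. Over all genes tested, 3.22% were called in Paneth and 37.3% in non-Paneth cells, in either direction. Other targets did not pass by edgeR in Paneth cells. At an unadjusted p under 0.05 edgeR had 5 of the 9, against 3491 of all 13057 genes. DESeq2 called 3 of the list, all lower, against 1465 genes in all. Dusp1, a phosphatase gene (−2.12, SE 0.621, adjusted p = 0.0781 by edgeR), and Zfp36, which encodes an mRNA decay factor (−1.19, SE 0.408, adjusted p = 0.108 by edgeR), were lower in every GRKO than in every WT library. So was Per1 (−0.34, SE 0.224, adjusted p = 0.344 by edgeR). Such a separation held for 9.99% of all genes. Klf9, a transcription factor gene, had 0.49 (SE 0.190, adjusted p = 0.123 by edgeR), Tsc22d3 −0.29 (SE 0.175) and Fkbp5 −0.18 (SE 0.195), and these overlapped. The median of the list was −0.34 in Paneth and −1.25 in non-Paneth cells.

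Markers of other cells were also read in the Paneth libraries, where edgeR called none of the lists' genes. The 4 stem cell markers (Lgr5, Olfm4, Ascl2 and Smoc2) summed to 5012 to 6502 CPM in WT and 3057 to 4359 CPM in GRKO Paneth libraries, apart between genotypes, with 0 of 4 called by edgeR (1 at an unadjusted p under 0.05, and 1, lower, by DESeq2). Nearly all of that sum was Olfm4 (mean 5393 CPM in WT and 3296 CPM in GRKO), while Lgr5, Ascl2 and Smoc2 overlapped. The immune list summed to 647 to 692 CPM against 143 to 559 CPM, with Cd79a at 0 in WT and Cd3e at 0 in GRKO. Nearly all of it was Cd74 (mean 655 and 351 CPM), and Ptprc, the gene of CD45, had a mean of 2.41 CPM in WT and 12.5 CPM in GRKO, with overlapping libraries. The 4 tuft cell markers summed to 131 to 331 CPM in WT and 318 to 873 CPM in GRKO, and the 8 enterocyte markers to 475 to 1417 against 496 to 812 CPM. Goblet markers summed to 8642 to 11652 CPM in WT and 8907 to 12141 CPM in GRKO, enteroendocrine markers to 56.6 to 114 against 49.0 to 74.8 CPM, and proliferation genes to 365 to 515 against 337 to 508 CPM, all overlapping. Most of the goblet sum was Spink4 (mean 6170 CPM in WT and 6313 CPM in GRKO), which had a mean of only 321 CPM in WT non-Paneth libraries. The goblet gene Clca1 had a mean of 82.9 CPM in WT and 549 CPM in GRKO. It was higher in every GRKO than in every WT library (log2 fold change 2.71, SE 0.674, adjusted p = 0.0576 by edgeR). The other goblet markers overlapped. At an unadjusted p under 0.05 edgeR had 4 enterocyte, 2 tuft, 2 proximal, 1 goblet and 1 proliferation gene, against 3491 of all 13057 genes. After adjustment DESeq2 called 2 enterocyte, 1 proximal and 1 goblet gene, against 1465 genes in all. The region of the intestine was followed by 6 genes of the distal part, such as the ileal bile acid genes Fabp6 and Slc10a2. These summed to 55.7 to 191 CPM in WT and 37.4 to 208 CPM in GRKO Paneth libraries, overlapping, and 7 genes of the proximal part, such as Gata4, summed to 72.2 to 104 against 78.6 to 139 CPM. In non-Paneth cells the distal genes summed to 913 to 2252 CPM in WT and 342 to 869 CPM in GRKO, with 3 of 6 called lower. The sum of the proximal genes was lower there too, at 1894 to 2100 CPM in WT and 547 to 852 CPM in GRKO, with 0 of 7 called. Most of that WT sum was Lct (mean 1744 CPM in WT and 440 CPM in GRKO), which is also on the enterocyte list. The mean CPM was higher in GRKO for Gata4 (147 to 202), Onecut2 (54.5 to 56.2) and Pdx1 (9.78 to 10.6). It was lower for Slc40a1 (34.0 to 24.2), Bco1 (15.4 to 13.4) and Cybrd1 (0.860 to 0.753). In the edgeR fit, with TMM scaling, only Gata4 had a positive log2 fold change (0.18). Over all genes tested 37.3% were called in this contrast, in either direction. The part of these cells, or of the region sampled, in the lower levels of Defa21, Defa22 and Defa35 was not tested.

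In non-Paneth cells the same genes were read at a small share of the Paneth level. Summed, they held 0.0320, 0.0958 and 0.0212% of all counts in WT and 0.0749, 0.0852 and 0.0521% in GRKO non-Paneth libraries. WT replicate 2, the library with Xist, was highest of all 6, and the GRKO libraries lay between it and the other 2 WT libraries. Among the WT non-Paneth libraries, replicate 2 was also highest for Paneth markers. Lyz1 read 398 CPM in it against 124 and 130 CPM, Itln1 200 against 67.9 and 90.5, and Mptx2 31.1 against 8.22 and 5.47. The part of Paneth cells in these reads was not tested. As a percent of the Paneth level, the summed genes stood at 0.166% in WT and 0.248% in GRKO, or 0.0887% in WT without replicate 2 of the non-Paneth cells. Lyz1 stood at 0.161 and 0.201%, Mptx2 at 0.107 and 0.137%, and Ang4 at 0.288 and 1.14%. Among the 10 genes Defa17 had the highest percent in both genotypes (0.231 and 0.484%), but without WT non-Paneth replicate 2 it stood at 0.107% in WT, below Defa35 (0.159%). The lowest was Defa5 in WT (0.117%) and Defa35 in GRKO (0.0630%).

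**Figure D5:**
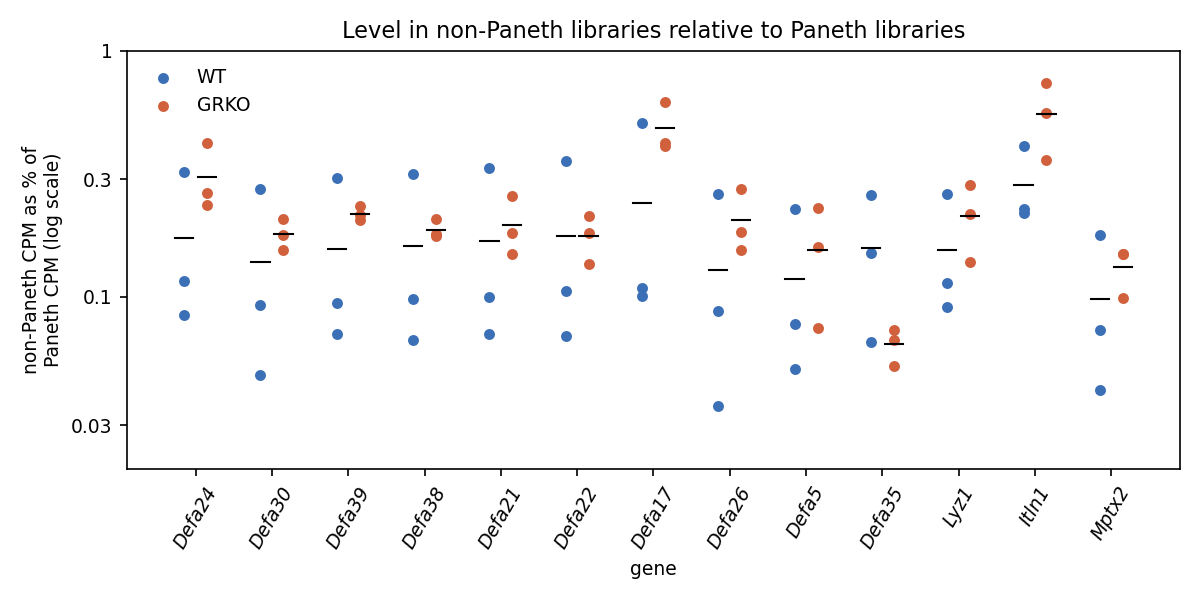
CPM in each non-Paneth library as a percent of the CPM in the Paneth library of the same genotype and number (vertical axis, logarithmic), with WT in blue, GRKO in red and a black line at the mean of 3, for the 10 genes and the Paneth genes Lyz1, Itln1 and Mptx2. WT replicate 2 is the highest WT point for 9 of the 10 genes, and the points of Defa35 rest on 1 to 6 counts.

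Defa35 had 6, 4 and 2 counts in WT and 1, 1 and 1 in GRKO non-Paneth libraries. It passed the filter on low counts through the Paneth libraries alone, so its non-Paneth difference is given without a test. Over the other 9 genes the GRKO effect in non-Paneth cells was called by edgeR for 0 (0 also at an unadjusted p under 0.05 and by DESeq2), against 37.3% of all genes tested, and the median log2 fold change was 0.10 over the 9 and 0.02 over all genes. Defa24 read 162, 451 and 115 CPM in WT and 426, 551 and 299 CPM in GRKO non-Paneth libraries, and Defa21 read 22.9, 81.5 and 18.3 against 29.4, 33.9 and 17.8 CPM. The values turned on the WT library included and on the filter. Without WT replicate 2, 6 genes were called higher in GRKO, against 10.2% of all genes in that fit, namely Defa17 (1.73, adjusted p = 0.000568), Defa26 (1.35, 0.0296), Defa24 (1.29, 0.0114), Defa30 (1.18, 0.0375), Defa39 (0.95, 0.0121) and Defa38 (0.88, adjusted p = 0.0299 by edgeR), while Defa21 (0.07), Defa22 (0.20) and Defa5 (0.53) were not. Without WT replicate 3, Defa21 was called lower (−1.31, adjusted p = 0.0375 by edgeR). Without a filter on low counts, Defa21 (−0.86, adjusted p = 0.00259) and Defa22 (−0.75, 0.0115) were called lower and Defa17 higher (0.66, adjusted p = 0.0161 by edgeR). The share of all genes called in these last 2 settings is not given here, so these calls are not set apart from it.

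The make-up of the sum in non-Paneth cells was read in the same way. Defa21 took 7.16, 8.51 and 8.63% of the summed genes in WT and 3.93, 3.99 and 3.41% in GRKO non-Paneth libraries, and Defa22 took 7.18, 8.499 and 8.14% against 4.62, 3.98 and 3.56%. Defa24 took 50.8, 47.0 and 53.9% against 56.9, 64.7 and 57.3%. Defa17 took 0.752, 0.994 and 0.857% against 1.08, 1.299 and 1.36%. In these 4 genes the genotypes did not overlap, WT replicate 2 included, and neither did they in Defa35, on 1 to 6 counts. The ratio to the summed 10 genes did not overlap for 9.42% of all genes tested in these libraries. The same order was seen in Paneth cells for the first 3 but not for Defa17, whose Paneth shares overlapped.

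Of the markers of other cells in the non-Paneth libraries, 3 of 8 enterocyte genes were called lower and 4 of 4 tuft genes higher by edgeR, against the 37.3% of all genes called in either direction. The 8 enterocyte markers summed to 28333 to 31927 CPM in WT and 7028 to 8803 CPM in GRKO, the 4 tuft markers to 3.80 to 10.5 against 92.8 to 369 CPM, and the 5 Paneth markers to 241 to 739 against 508 to 1029 CPM. Ang4, a Paneth ribonuclease, rose by a log2 fold change of 2.35 (SE 0.499, adjusted p = 0.00355 by edgeR), while Lyz1 had −0.08 (SE 0.411). The part of these markers in the alpha defensin levels was not tested.

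The difference of the GRKO effect between the fractions was called for 0 of the 10 genes by edgeR, with 0 at an unadjusted p under 0.05 and 0 by DESeq2, against 18.7% of all genes by edgeR. For Defa35 the non-Paneth counts are too few to read a difference. For Defa17 it was −0.76 (SE 0.675), and for Defa39 −0.20 (SE 0.559). Without WT non-Paneth replicate 2 the difference was called in both Defa17 (−1.90, adjusted p = 0.00340) and Defa39 (−1.08, adjusted p = 0.0448 by edgeR), against 11.8% of all genes in that fit.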

How the data were processed

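Crypt cells were sorted as Paneth or non-Paneth cells and sequenced as TruSeq stranded single-end libraries. The authors aligned reads with STAR 2.7.10a to mm39 and an annotation the methods call gencode v28, with counting during alignment, and the processing notes name Trimmomatic 0.39. The deposited values are raw counts per gene, whole numbers without normalization, and no library was left out. Read length and the strand column counted are not given in the sources used here. Of 55414 identifiers, 54749 (98.8%) were named through GENCODE vM39, whose release may differ from that of the authors, and positions are on GRCm39.

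CPM and shares use all gene counts of a library. Differences were fitted with edgeR 4.0.16 in R 4.3.3 (filterByExpr, TMM, glmQLFit with robust estimates, glmQLFTest) on 12 libraries with 1 mean per group and Benjamini-Hochberg adjustment over 13057 genes, with a threshold of 5%. The SE of a log2 fold change is not given by this test. It was derived as the absolute log2 fold change divided by the square root of the F value. TMM factors lay between 0.656 and 1.50. Shares and ratios were given without a test. The procedure was tested on simulated data. The alternatives were DESeq2 1.42.0, RLE factors, library totals, TMM without Lyz1 and Defa genes, other filters on low counts, fewer groups in the fit, a replicate block and each library left out. Levels were also recomputed per exonic length, and per share of unique windows. Genes named are the 10 alpha defensins, any other Defa gene above the lowest of them, fixed marker and pathway lists, and the genes most alike. All were chosen with earlier results of these data known. The pairs of libraries in a group differed beyond sampling noise (chi-square per degree of freedom 12.3 to 47.1). Columns not used numbered 0.

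After group means were removed, same-numbered WT Paneth and WT non-Paneth libraries correlated at 0.39, 0.251 and 0.308, so that the numbers pair these libraries within WT. In GRKO they correlated at −0.091, 0.26 and 0.474, and between genotypes the numbers did not pair.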

Additional observations from a re-analysis of the deposited data

How the results depend on the processing

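In Paneth cells the count of genes called was 420 in the reported fit, 1465 with DESeq2, 1780 without a filter on low counts, 2 with library totals only, 0 with only the groups compared (2341 at an unadjusted p under 0.05) and 0 to 1618 when each library was left out. The corresponding ranges were 3636 to 5504 genes for non-Paneth cells and 1563 to 2607 for the difference between fractions. The cause was not tested. Same-numbered GRKO and WT libraries correlated at 0.128, 0.139 and −0.071 in Paneth and −0.104, 0.176 and −0.112 in non-Paneth cells, so that they share only a number. With the replicate block 977 genes were called in Paneth cells, 4991 in non-Paneth cells and 2977 for the difference. The summed genes in GRKO non-Paneth cells stood at 0.124% of the Paneth level with TMM library sizes, against 0.248%, and those in WT at 0.102% against 0.166%.

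Small log2 fold changes changed sign. In Paneth cells Defa24 went from 0.00 to −0.0034 with RLE factors, −0.04 (−0.0373) with at least 10 counts in every library of a group and −0.0398 with only the groups compared, and Defa38 from 0.03 to −0.0105 and −0.0131 in the last 2 settings. In non-Paneth cells Defa38 went from −0.02 to 0.27 with library totals only, 0.007 without a filter and 0.14 with the replicate block. With each library left out, the Paneth values ran from −0.22 to 0.11 for Defa24, −0.20 to 0.29 for Defa30, −0.15 to 0.13 for Defa38, −0.26 to 0.26 for Defa26 and −0.23 to 0.0516 for Defa39. The non-Paneth values ran from −0.41 to 1.18 for Defa30, −0.31 to 0.95 for Defa39, −0.47 to 0.88 for Defa38, −1.31 to 0.0674 for Defa21, −1.21 to 0.20 for Defa22, −0.78 to 0.53 for Defa5 and −0.11 to 1.35 for Defa26. For the difference between fractions, Defa39 ran from −1.08 to 0.18.

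The count of genes whose share did not overlap in Paneth cells was 5, and 5 to 7 with a library left out. Leaving a library out cannot make separate ranges overlap, so this count could only stay or rise and says nothing about stability. Divided by the share of unique windows it was again 5, with Defa38 (9.01 to 10.4%) in and Defa5 out. The Paneth difference in the summed share ran from −3.78 to −0.11 percentage points, and the non-Paneth difference from 0.00682 to 0.0441, with a library left out. The Paneth log2 fold change was negative in all 21 settings for Defa21 (−1.07 to −0.70), Defa22 (−0.76 to −0.37), Defa35 and Defa5 (−0.64 to −0.18). In each of these genes every GRKO Paneth library was below every WT Paneth library. Settings that reuse these libraries could therefore hardly change the sign, and the constant sign is no separate support. Non-Paneth levels of Defa35 rest on 12 counts in WT and 3 in GRKO, which limits any statement about it there.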

Other observations

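Of the 18 alpha defensin genes outside the 10, 5 had at most 3 counts in the 6 Paneth libraries together, and for Defa23, Defa31, Defa2, Defa33, Defa36, Defa20, Defa32 and Defa37 none of the 100-base exonic windows occurs once in the genome. Their low counts therefore say little about their level.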
